A study of Mus musculus with 28 samples.

Results

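Fibroblast growth factors (FGFs) are secreted proteins that bind receptor tyrosine kinases at the cell surface and switch on the Ras to ERK kinase cascade. Active ERK raises the transcription of its own inhibitors, the Sprouty and Spred proteins and the phosphatase DUSP6, so that the pathway is held back by negative feedback, and of the ETS transcription factors ETV4 and ETV5. In mouse embryonic stem cells (mESCs), FGF4 made by the cells themselves is the main source of ERK activity and prepares them to leave self-renewal, whereas FGF5 is a marker of the epiblast state that follows.

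Described here are 10 genes of this pathway, chosen by name: the ligands *Fgf4* and *Fgf5*, the receptors *Fgfr1* and *Fgfr2*, the feedback inhibitors *Spry2*, *Spry4*, *Spred1* and *Dusp6*, and the target transcription factors *Etv4* and *Etv5*. Of these 10 genes, 9 were among the 15384 genes with RNA-seq values per library, and *Fgf5* was not. All 9 passed the low-value filter, a value above 1 in at least 4 libraries, which every one of the 15384 genes met.

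The cells were mESCs of the E14 line, grown in serum with 10 ng/ml leukaemia inhibitory factor (LIF). *Ssrp1*, which encodes a subunit of the histone chaperone FACT, was knocked down (KD) with a combination of 2 short hairpin RNAs and compared with cells that received a scrambled hairpin. Both groups were transfected, given 48 h, and then selected with 2 µg/ml puromycin for 24 h. RNA-seq with ERCC spike-ins covered 4 control and 4 KD libraries. Beside these stood 2 libraries of chromatin-associated RNA from E14 cells and ChIP-seq peak lists for both FACT subunits, SSRP1 and SUPT16, each called on 2 replicates together. All cells came from 1 line, and the KD was measured at 1 time point.

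In these libraries the target was depleted. In values scaled to library size, with libraries always given in the order of their replicate numbers, *Ssrp1* was at 260.7, 229.8, 222.6 and 225.8 across the control libraries and at 24.1, 26.4, 24.9 and 28.9 across the KD libraries. The KD mean was 11.1% of the control mean. *Supt16*, the other subunit gene, was 0.66 higher on the log2 scale (SE 0.058, limma adjusted p = 5.24e-11), short of the fold threshold, but 1.69 with spike-ins, 1.06 after a correction for exon length and 0.03 after quantile normalisation. These are RNA values. The study reports that SUPT16 protein, measured by mass spectrometry, was depleted together with SSRP1. Reads on listed genes numbered 4602278 to 6680919 per control library and 9433193 to 19856032 per KD library, so the KD values rest on more reads. A gene was called changed at a limma adjusted p below 0.01 together with an absolute log2 fold change above 1, on log2(value + 0.5). By this rule 28.6% of all genes were called, 8.07% as higher and 20.6% as lower in KD.

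The scaling of the libraries sets where 0 lies on the log2 scale. The median log2 fold change of all 15384 genes was -0.03 with the library-size values, -0.45 when libraries were scaled to their total of reads, 0.05 after quantile normalisation and 0.95 with the values that the authors scaled to spike-ins. The spike-in values spread widely inside the KD group, where *Fgf4* was at 199.1, 395.8, 333.2 and 313.3. *Fgfr1* with spike-ins was at 45.2, 85.1, 66.6 and 69.0 in KD and at 57.5, 50.8, 58.2 and 72.8 in control. KD replicate 1, the lowest KD library for both, also had the fewest reads of the KD libraries (9433193). The part of read depth in the spike-in fold changes was not tested. Directions below are those of the library-size values, whose median is near 0. For the 9 genes, values under the other scalings are given where the direction or the call turned.

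Sequences are shown for the places where the ChIP-seq and RNA-seq data of these genes meet. The windows are the 250 bases before the TSS, from RefSeq on GRCm38.p6 and written on the strand of the gene. They are given for *Dusp6* and *Spred1*, where a FACT peak overlaps only 44 and 80 bases of the window. They are also given for *Fgf4* and *Etv5*, which were higher in KD and have no peak in the window. The last line is the intronic segment of *Etv4* where an SSRP1 and a SUPT16 peak overlap. Capitals mark matches, on either strand, to the following motifs. The first are the repeat TATATA, whose matches here overlap each other, and the usual TATA box with the letters TATAAA. The GC box is spelled GGGCGG, and a box recognised by the factor NF-Y has the letters CCAAT. The others are an ETS motif, spelled CCGGAA, the SOX motif, spelled ACAAAG, and the octamer of POU factors, spelled ATGCAAAT. Shorter spellings of ETS sites, such as GGAA, were not searched.
Fgf4 promoter, chr7:144861136-144861385, strand plus: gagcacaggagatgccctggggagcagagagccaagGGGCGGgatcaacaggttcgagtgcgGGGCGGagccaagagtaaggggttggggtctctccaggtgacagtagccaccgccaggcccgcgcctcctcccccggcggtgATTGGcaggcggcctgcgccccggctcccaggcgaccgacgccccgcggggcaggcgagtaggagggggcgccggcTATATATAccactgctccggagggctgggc
Etv5 promoter, chr16:22439571-22439820, strand minus: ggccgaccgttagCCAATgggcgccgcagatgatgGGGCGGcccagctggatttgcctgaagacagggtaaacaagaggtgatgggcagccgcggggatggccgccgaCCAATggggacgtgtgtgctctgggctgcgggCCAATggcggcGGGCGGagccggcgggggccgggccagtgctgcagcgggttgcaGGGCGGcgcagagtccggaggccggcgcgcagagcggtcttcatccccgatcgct
Dusp6 promoter, chr10:99262981-99263230, strand plus: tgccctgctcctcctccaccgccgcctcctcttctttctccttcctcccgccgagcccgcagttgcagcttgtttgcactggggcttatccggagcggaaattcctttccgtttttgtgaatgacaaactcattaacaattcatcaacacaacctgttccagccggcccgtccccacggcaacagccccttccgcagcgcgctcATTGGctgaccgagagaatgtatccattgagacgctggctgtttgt
Spred1 promoter, chr2:117120821-117121070, strand plus: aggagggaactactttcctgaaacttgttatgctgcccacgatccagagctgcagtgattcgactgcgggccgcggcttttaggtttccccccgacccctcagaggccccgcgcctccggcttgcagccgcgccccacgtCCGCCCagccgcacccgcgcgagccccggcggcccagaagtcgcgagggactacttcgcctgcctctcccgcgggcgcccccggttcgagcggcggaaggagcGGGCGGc
Etv4 intron, chr11:101772161-101772412, strand minus: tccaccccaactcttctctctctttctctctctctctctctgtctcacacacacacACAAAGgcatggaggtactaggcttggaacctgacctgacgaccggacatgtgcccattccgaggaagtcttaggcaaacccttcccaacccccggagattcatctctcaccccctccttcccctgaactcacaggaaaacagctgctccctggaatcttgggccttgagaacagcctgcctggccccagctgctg

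The windows differ in their core elements. *Fgf4* has a TATA repeat 30 to 23 bases before the TSS, a motif found in 5.01% of the 32536 distinct promoter windows of the table, 2 GC boxes (33.0% of windows hold at least 1) and 1 NF-Y box (33.8%). The *Etv5* window printed has 3 GC boxes and 3 NF-Y boxes, *Spred1* 2 GC boxes and *Dusp6* 1 NF-Y box. The *Dusp6* box, 46 to 42 bases before the TSS, lies outside the SSRP1 peak. Of the *Spred1* boxes, the one 110 to 105 bases before the TSS lies outside the SUPT16 peak and the one at 7 to 2 inside it. The *Etv4* segment holds 1 SOX motif (16.5% of windows). None of the 5 sequences holds the ETS motif as spelled above (12.1%), the octamer (1.62%) or TATAAA (12.3%). Some peaks hold 1 such ETS motif outside the printed sequences, among them the SSRP1 peaks upstream of *Dusp6* and over a TSS of *Etv4*. Other peaks hold none, and the peaks of *Spry4* were not searched. The GC content was 71.2% for *Fgf4*, 71.2% for *Etv5*, 70.8% for *Spred1* and 56.4% for *Dusp6*, against a median of 52.4% over all windows. The window at a second RefSeq TSS of *Etv5*, at chromosome 16 position 22438368, is not printed; its GC content was 62%, and it holds 1 NF-Y box and no GC box. A match is a description of letters and not a bound site. Of the 10 genes, 7 had an entry in the promoter table.

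The genes with the largest rise were the ligand *Fgf4* and the transcription factor *Etv4*, the only 2 of the 9 genes called, both higher in KD, where 28.6% of all genes were called. *Etv5* and *Spry4* were higher and *Fgfr1* and *Fgfr2* lower by an adjusted p below 0.01 without reaching the fold threshold. Of all genes, 72.8% had an adjusted p below 0.01, 35.4% on the higher and 37.3% on the lower side. The groups did not overlap for 6 of the 9 genes, 4 higher and 2 lower, against 73.3% of all genes (35.8% higher and 37.5% lower). *Spry2*, *Spred1* and *Dusp6* passed neither threshold. The median log2 fold change of the 9 genes was 0.09, against -0.03 for all genes. In bulk RNA, fewer cells that express a gene and less of its RNA per cell cannot be told apart.

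**Figure D1:**
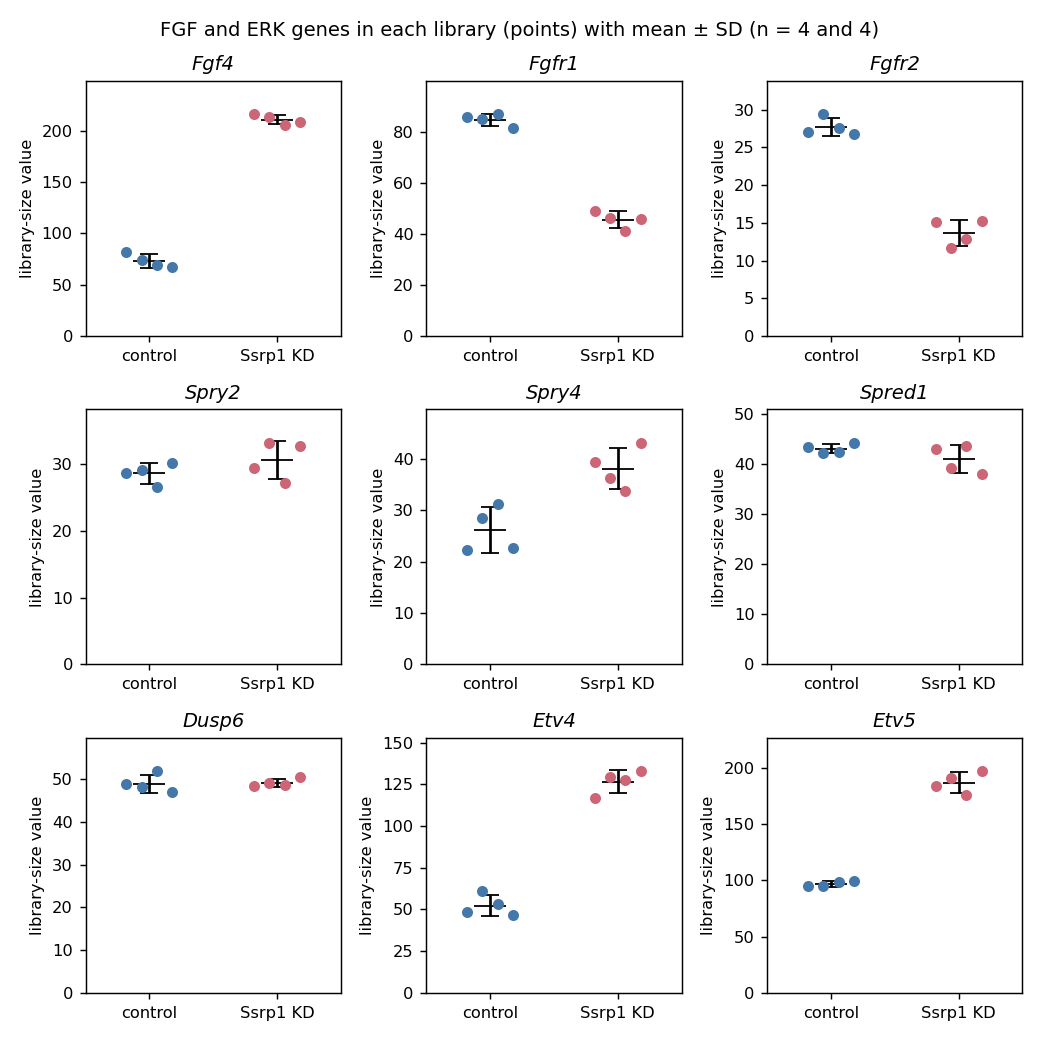
Values scaled to library size of the 9 genes with values, 1 panel a gene, in 4 control (blue) and 4 *Ssrp1* KD (red) libraries; points are libraries, the wide bar is the mean and the whiskers are 1 SD. The *Fgf4* points lie between 67.2 and 81.8 in control and between 206.2 and 216.3 in KD, whereas those of *Dusp6* overlap.

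*Fgf4* encodes the ligand through which mESCs stimulate their own ERK signalling. Its values were 81.8, 74.4, 68.9 and 67.2 across the control libraries and 216.3, 213.7, 206.2 and 208.3 across the KD libraries. All KD libraries lay far above all control libraries. The means were 73.0 ± 6.60 (SD, n = 4) and 211 ± 4.65 (SD, n = 4), a rise of 2.89-fold and a log2 fold change of 1.53 (SE 0.062, adjusted p = 8.41e-18). This placed *Fgf4* at percentile 98.5 of the log2 fold changes of all genes. It was called under every scaling tried, with log2 fold changes from 1.10 (total of reads) to 2.55 (spike-ins), and leaving out any 1 library gave 1.49 to 1.58. An exact two-sided permutation test over the 8 libraries gave p = 0.0286, the smallest that 4 against 4 libraries allow. *Fgf5* is not listed among the genes with values, so no comparison could be made for it.

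*Etv4* and *Etv5* encode related ETS-domain activators that ERK signalling induces. *Etv4* was at 48.2, 60.8, 53.5 and 46.6 across the control libraries and at 116.5, 129.2, 127.8 and 132.8 across the KD libraries. The groups did not overlap, and the gap between them was wider than the spread inside either. The log2 fold change was 1.27 (SE 0.0731, adjusted p = 8.83e-15), from 52.3 ± 6.37 to 127 ± 7.01 (SD, n = 4 each). Under quantile normalisation it was 0.95 and under scaling to the total of reads 0.85, both short of the fold threshold.

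*Etv5* was at 95, 94.5, 98.8 and 99.4 across the control libraries and at 183.3, 190.7, 176.1 and 196.8 across the KD libraries. Every KD library was again above every control library. The log2 fold change of 0.94 (SE 0.0563, adjusted p = 2.05e-14) corresponded to a 1.93-fold higher mean, just under the threshold. After a correction for exon length it was 1.28 and with spike-ins 1.96, both past it.

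*Fgfr1* encodes the receptor that responds to FGF4 in undifferentiated mESCs. Its values were 85.6, 84.8, 86.8 and 81.4 across the control libraries and 49.1, 46.0, 41.2 and 45.9 across the KD libraries. The KD libraries were all below the control libraries, at 53.8% of the control mean. The log2 fold change was -0.89 (SE 0.0668, adjusted p = 2.25e-12). It was past the fold threshold under quantile normalisation (-1.16) and under the total of reads (-1.32). After a correction for exon length it was only -0.44, and with spike-ins 0.13 (adjusted p = 0.694).

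*Fgfr2* encodes a receptor prominent in the extra-embryonic lineages. It was at 27.1, 29.4, 27.6 and 26.8 across the control libraries and at 15.1, 11.7, 12.8 and 15.2 across the KD libraries. The groups did not overlap, and the KD mean was 49.4% of the control mean. On log2(value + 0.5), the log2 fold change of -0.999 (SE 0.105, adjusted p = 1.71e-09) stopped just inside the threshold. After a correction for exon length it was only -0.52, and with spike-ins 0.00052 (adjusted p = 0.999). It crossed the threshold with TMM scaling (-1.0), a pseudocount of 0.1 (-1.02), edgeR (-1.03) and the total of reads (-1.42). Without control replicate 1, 3 or 4 or without KD replicate 1 or 4 it was also called, with leave-one-out values from -1.05 to -0.93.

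The feedback inhibitors did not share a direction. *Spry4*, a Sprouty inhibitor of receptor signalling, was at 22.2, 28.4, 31.2 and 22.7 across the control libraries and at 39.3, 36.2, 33.7 and 43.1 across the KD libraries. The highest control library came close to the lowest KD library without reaching it. The log2 fold change was 0.54 (SE 0.102, adjusted p = 2.48e-05), from 26.1 ± 4.41 to 38.1 ± 4.03 (SD, n = 4 each). It ranged from 0.12 with the total of reads to 1.55 with spike-ins, where it was called.

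*Spry2*, its paralogue, was at 28.7, 29.1, 26.5 and 30.2 across the control libraries and at 29.4, 33.2, 27.1 and 32.7 across the KD libraries. The groups overlapped, and the log2 fold change of 0.09 (SE 0.0871) had an adjusted p of 0.341. It was -0.33 under the total of reads and 1.10 with spike-ins.

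*Spred1* encodes an inhibitor that acts on the step from Ras to Raf. It was at 43.4, 42.2, 42.3 and 44.2 across the control libraries and at 42.9, 39.1, 43.6 and 37.9 across the KD libraries. The ranges overlapped, with a log2 fold change of -0.075 (SE 0.0734, adjusted p = 0.348) that became 0.18 after the exon length correction and 0.94 with spike-ins.

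*Dusp6* encodes the phosphatase that removes the activating phosphates from ERK. It was at 48.9, 48.0, 51.8 and 46.9 across the control libraries and at 48.3, 49.0, 48.6 and 50.4 across the KD libraries. The means were 48.9 ± 2.11 and 49.1 ± 0.912 (SD, n = 4 each), and the log2 fold change was 0.005 (SE 0.0677, adjusted p = 0.943). Of the 9 genes it lay nearest to 0. It was -0.24 after quantile normalisation, -0.42 under the total of reads and 1.02 with spike-ins.

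A linear scaling moves all genes of a library together, so the distances between the 9 genes hardly changed. With spike-ins, and after subtracting the median of 0.95, *Fgf4* was at 1.60, *Etv4* at 1.34, *Etv5* at 1.01, *Spry4* at 0.60, *Spry2* at 0.15, *Dusp6* at 0.07, *Spred1* at -0.02, *Fgfr1* at -0.83 and *Fgfr2* at -0.95 on the log2 scale. The order of these values was that of the library-size values.

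**Figure D2:**
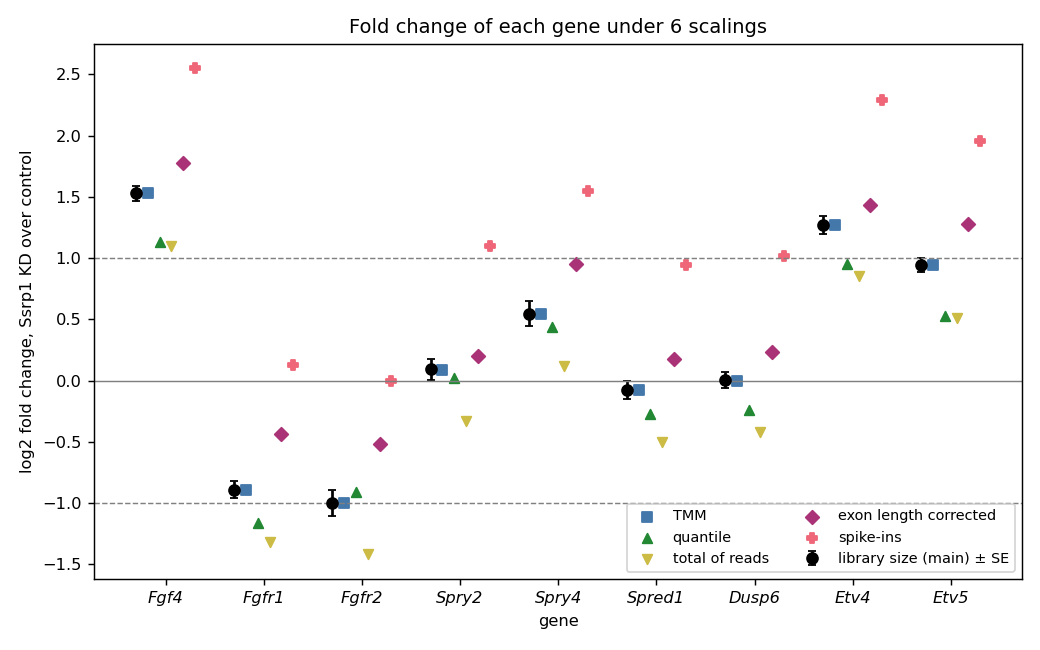
Log2 fold change of *Ssrp1* KD over control for each of the 9 genes under 6 scalings, with the SE of the main fit; dashed lines mark the fold thresholds of 1 and -1. *Fgf4* lies above 1 under all 6 scalings, while *Fgfr1* and *Fgfr2* lie below 0 under every scaling shown but the spike-ins, where they are at 0.13 and 0.00052.

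Ratios of 2 genes inside 1 library are free of the scaling. The log2 ratio of *Spry4* to *Spry2* was -0.37, -0.03, 0.23 and -0.41 across the control libraries and 0.41, 0.13, 0.31 and 0.39 across the KD libraries. Control replicate 3 lay inside the KD range, and the difference of 0.45 gave an exact two-sided permutation p of 0.0571, or 0.0857 after Benjamini-Hochberg adjustment over the 3 ratios tested.

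The log2 ratio of *Etv5* to *Etv4* was 0.97, 0.63, 0.88 and 1.08 across the control libraries and 0.65, 0.56, 0.46 and 0.57 across the KD libraries. Control replicate 2 lay inside the KD range, and the difference of -0.33 gave the same exact permutation p of 0.0571 (adjusted 0.0857). Between the receptors, the mean log2 ratio of *Fgfr2* to *Fgfr1* was -1.59 ± 0.06 in control and -1.70 ± 0.16 in KD (SD, n = 4 each; exact permutation p = 0.229, adjusted 0.229). None of the 3 ratios thus differed beyond the spread at a p below 0.05. The planned ratio of *Fgf5* to *Fgf4* had no value for *Fgf5*.

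**Figure D3:**
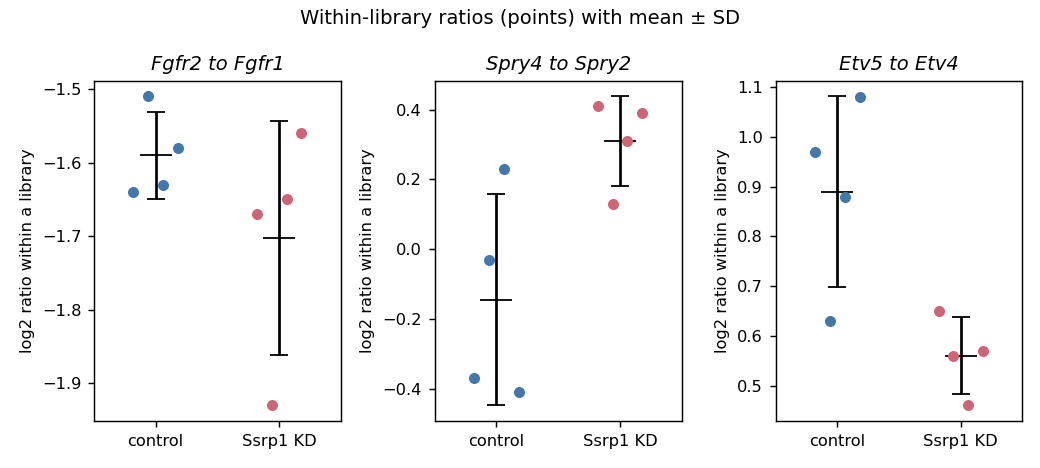
Log2 ratio of paired genes within each library, for *Fgfr2* to *Fgfr1*, *Spry4* to *Spry2* and *Etv5* to *Etv4*, in 4 control (blue) and 4 KD (red) libraries with mean and SD. In each panel at least 1 control library falls inside the KD range.

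The order of the 9 genes by level changed between the groups. Levels are compared between genes only per kilobase of exon. In control cells *Etv5* (25.4 ± 0.668 per kb), *Fgf4* (24.1 ± 2.18) and *Etv4* (22.4 ± 2.73; SD, n = 4 each) stood highest, and their ranges overlapped from 1 to the next. *Dusp6* (17.5) and *Fgfr1* (16.9) followed and overlapped each other, as did *Spred1* (14.4) and *Spry2* (13.7). *Spry4* (5.69) and *Fgfr2* (5.19) were lowest and also overlapped. In KD cells *Fgf4* was first, at 69.7 ± 1.54 per kb, clear of *Etv4* at 54.2 ± 3.00, while *Etv4* and *Etv5* (48.9 ± 2.35) overlapped. *Fgfr1* (9.09) moved from rank 5 to rank 7, next to and overlapping *Spry4* (8.30), and *Fgfr2* (2.56) stayed last. Against all 15384 genes per kilobase, *Fgf4* moved from percentile 80.5 to 91.0, *Fgfr1* from 71.9 to 53.0 and *Fgfr2* from 36.1 to 27.6.

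Over the 8 libraries, the gene whose log2 values ran most like those of *Fgf4* was *Crxos* (Pearson r = 0.999). For *Etv5* it was *Psme3* (0.999), for *Etv4* *Chaf1b* (0.998), for *Fgfr1* *Ptpre* (0.998), for *Fgfr2* *Tbc1d2b* (0.996), for *Spry4* *Ccdc8* (0.99), for *Dusp6* *Gas6* (0.980), for *Spred1* *Slc11a1* (0.952) and for *Spry2* *Map1s* (0.937). These are descriptions over 8 libraries that share their scaling and fall into 2 groups: 3279 genes had an r above 0.95 with *Fgf4*, and none with *Spry2*.

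The rest of the pathway was read from 68 other genes listed by role, of which 52 had values. Of these, 5 were called higher and 10 lower in KD, against 8.07% and 20.6% of all genes, and their median log2 fold change was -0.09 (all genes -0.03). A further 11 were higher and 10 lower by adjusted p alone. Of the 15 genes called, all kept their sign, but only 6 were still called after quantile normalisation, 6 with spike-ins, 9 after the exon length correction and 11 with the total of reads. *Ier3* was the 1 gene called in the same direction under all of quantiles, spike-ins, the exon length correction and the total of reads.

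Of 20 other ligand genes listed, 13 had no value. Among the 7 with values, 4 were called lower and none higher. The filter, a value above 1 in at least 4 libraries, could be met by the control libraries alone. These were *Fgf18* (-1.92), *Fgf13* (-1.41), *Fgf1* (-1.32) and *Fgf10* (-1.19 on the log2 scale), with control means of 3.94 to 19.3, far below *Fgf4*. Quantile normalisation left all 4 negative, from -0.97 to -0.05, as did the spike-ins, from -1.10 to -0.34. *Fgf10* was at 3.94 ± 1.32 in control and 1.38 ± 0.183 in KD (SD, n = 4 each), close to the filter value of 1. In KD, *Fgf18* was below that value at 0.902 ± 0.266 and *Fgf13* near it at 1.21 ± 0.479 (SD, n = 4 each). The median of the 7 ligands was -1.19, but -0.05 after quantile normalisation and -0.34 with spike-ins.

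Of 7 other receptor and co-receptor genes, only *Gpc4*, which encodes a heparan sulphate proteoglycan, was called (-1.56, SE 0.11, adjusted p = 5.52e-13; 28 ± 2.24 to 9.16 ± 0.707), and it was -0.57 with spike-ins. *Fgfr3* (-0.89) and *Fgfr4* (-0.84) were lower by adjusted p alone, near the value of *Fgfr1*, and were 0.08 and 0.13 with spike-ins. None of the 8 adaptor and exchange factor genes was called, among them *Frs2*, the docking protein of the FGF receptors (-0.84, adjusted p = 1.56e-10; 0.17 with spike-ins), and *Grb2* (0.04, adjusted p = 0.644).

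Of the 11 genes from Ras to ERK, *Nras* (1.07) and *Map2k1*, which encodes MEK1 (1.05), were called higher and *Ksr1*, a scaffold of the cascade, was called lower (-1.19). Under quantile normalisation *Nras* was 0.68 and *Map2k1* 0.60, and with spike-ins *Ksr1* was -0.20. Another 6 were higher by adjusted p alone, including *Map2k2* (0.99) and *Mapk3* (0.95), the genes of MEK2 and ERK1. The median of the 11 was 0.30 with the library-size values, -0.13 with the total of reads and -0.01 after quantile normalisation.

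Of the 11 other inhibitors and phosphatases, 3 were called lower and none higher: *Spred3* (-1.79), the Ras GTPase activator *Nf1* (-1.13) and the ubiquitin ligase *Cbl* (-1.12), which were -0.87, -0.11 and -0.11 with spike-ins. With quantiles *Spred3* was -0.80. Among the Sprouty and Spred paralogues, *Spry1* was at -0.02 (adjusted p = 0.904; 0.86 with quantiles and 0.93 with spike-ins), and *Spred2* (-0.52, adjusted p = 5.1e-05; 0.47 with spike-ins) was lower by adjusted p alone. Of the phosphatases, *Dusp4* (-0.86) and *Dusp7* (-0.77) were lower and *Dusp9* (0.40) higher by adjusted p alone; with spike-ins *Dusp4* was 0.14 and *Dusp7* 0.20, and with quantiles *Dusp9* was -0.15. *Dusp6* passed no threshold.

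Of 8 other ERK-responsive genes, the immediate early genes *Ier3* (1.59), *Egr1* (1.40) and *Ier2* (1.31) were called higher and *Phlda1* (-1.07) lower. *Fos*, another immediate early gene, was at 11.6 ± 2.03 in control and 9.14 ± 0.742 in KD (SD, n = 4 each; -0.32, adjusted p = 0.0376; 0.23 with quantiles and 0.66 with spike-ins). *Etv1*, the third gene of the *Etv4* and *Etv5* family, was 0.75 higher by adjusted p alone (adjusted p = 1.34e-06), and 1.08 with quantiles and 1.74 with spike-ins. The 3 called higher were at 0.88 or above under the total of reads, quantiles and spike-ins, and *Phlda1* was -0.64 with quantiles and -0.08 with spike-ins.

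Levels of cell-state markers differed between the groups, where 8.07% of all genes were called higher and 20.6% lower. All 7 naive pluripotency markers had values, 4 were called higher (*Sox2* 1.28, *Pou5f1* 1.23, *Zfp42* 1.18 and *Nanog* 1.05), 3 were higher by adjusted p alone, and their summed value went from 1032 to 1101 in control libraries to 2218 to 2242 in KD libraries. None of the 4 was called with quantiles (0.56 to 0.74) or with the total of reads (0.62 to 0.85). Of 6 primitive endoderm markers with values, 3 were called lower (*Gata6* -1.89, *Gata4* -1.5 and *Sox17* -1.18), with sums of 205.5 to 231.1 in control and 194.4 to 212.4 in KD. *Sparc*, at 145 in control and 175 in KD, makes up most of these sums and was higher by adjusted p alone (0.27, adjusted p = 0.000496; -0.19 with quantiles). *Foxa2* was not listed. Of 5 trophectoderm markers, 2 were called lower (*Cdx2* -1.62 and *Gata3* -1.17), with sums of 406.7 to 519.6 and 269.9 to 279.7, and *Elf5* was not listed. *Krt18*, at 368 in control and 227 in KD, makes up most of these sums. It was lower by adjusted p alone (-0.69, but 0.34 with spike-ins). Of 4 epiblast markers, *Otx2* was called higher (1.16) and *Sall2* lower (-1.36), with sums of 181.2 to 212.4 and 247.9 to 270.1, and *Lef1* and *Sox3* were not listed. *Dnmt3b*, at 161 in control and 221 in KD, makes up most of these sums. It was higher by adjusted p alone (0.46, but -0.03 with quantiles), and *Pou3f1* (-0.34) passed no threshold. Of 5 neural markers, *Tubb3* was called higher (1.69) and *Pax6* (-1.46) and *Map2* (-1.22) lower, with sums of 83.71 to 107.4 and 144.5 to 155.5. *Nes* (-0.36) and *Sox1* (-0.96) were lower by adjusted p alone, but *Nes* was 0.65 with spike-ins and *Sox1* 0.23 with quantiles. *Tubb3*, at 33.6 in control and 108 in KD, was the only neural marker that rose and carried the higher sums. Of 5 fibroblast markers, 4 were called lower (*Col3a1* -2.63, *Col1a1* -2.58, *Col1a2* -2.05 and *Postn* -1.76) and *Thy1* (-0.13) passed no threshold, with sums of 49.96 to 63.68 and 13.15 to 14.95. The KD means of *Col3a1* (1.05), *Postn* (1.07) and *Cdx2* (1.38) were near the filter value of 1. Each marker named here as called kept its sign with quantiles, the total of reads and spike-ins. *Tubb3*, *Col1a1*, *Col1a2* and *Col3a1* were called under all of these, and the other calls were lost under at least 1 of them. The part of these markers in the values of the 9 genes was not tested.

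Chromatin-associated RNA was counted over exons in 2 libraries of 3441643 and 3393923 counts, of which 5.32% and 9.00% fell on protein-coding genes. Counts are therefore given scaled to the protein-coding total (CPM) with 95% exact binomial (Clopper-Pearson) intervals, which cover counting error only. *Fgf4* had the most, 67 and 184 counts, or 366 CPM (284 to 465) and 603 CPM (519 to 696). *Spred1* followed with 40 and 106 counts, or 218 CPM (156 to 297) and 347 CPM (284 to 420). For *Fgf4* the intervals of the 2 libraries did not touch, so they differed beyond counting error.

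*Spry4* had 17 and 78 counts and *Etv4* 9 and 44, with intervals that did not touch either (for *Etv4*, 22.5 to 93.3 and 105 to 193 CPM). The other genes stayed close between the libraries: *Etv5* had 21 and 39 counts, *Spry2* 17 and 28, *Fgfr1* 17 and 27, and *Dusp6* 16 and 29. *Fgfr2* had 0 and 5 counts and *Fgf5* 0 and 1. For a count of 0 in the first library the exact interval ends at 20.1 CPM for either gene.

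**Figure D4:**
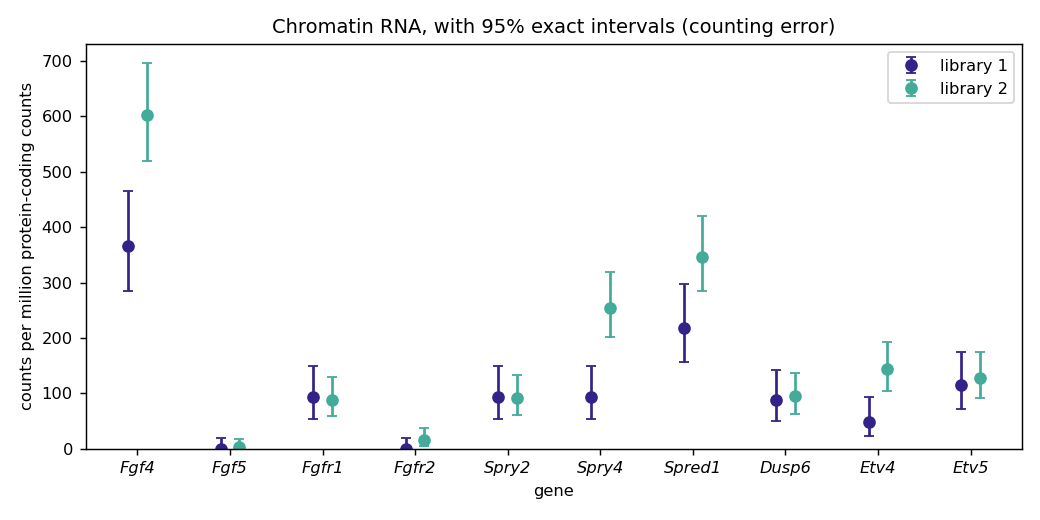
Chromatin-associated RNA of the 10 genes in 2 libraries of E14 cells, in CPM of the protein-coding total, with 95% exact intervals for counting error. *Fgf4* is highest in both libraries, at 366 and 603, and *Fgf5* and *Fgfr2* have a count of 0 in library 1.

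Per kilobase, and over all 27179 genes counted, *Fgf4* ranked 436, *Spred1* 794, *Spry2* 2048, *Etv4* 2224, *Spry4* 2473, *Dusp6* 2966, *Etv5* 3057, *Fgfr1* 5297, *Fgfr2* 15384 and *Fgf5* 17172. *Spry4* ranked 4785 in the first library alone and 1562 in the second, and *Etv4* 4641 and 1366. Set over the same 15384 genes as the total RNA of control cells, *Spry4* was at percentile 39.0 in total RNA and 85.6 in chromatin RNA, *Spred1* at 67.4 and 96.0, *Spry2* at 66.0 and 88.3, and *Fgf4* at 80.5 and 98.2. *Etv5* held its place (81.5 and 81.9), and *Fgfr2* was at 36.1 and 15.0. The assays differ in RNA fraction and depth and share no libraries, so these percentiles are side by side without a test.

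FACT peaks were assigned to 8 of the 10 genes, by the deposited nearest-gene assignment. SSRP1 peaks were assigned to 6 (*Fgf4*, *Spry2*, *Spry4*, *Dusp6*, *Etv4* and *Etv5*), where 36.0% of the 15384 genes had at least 1. SUPT16 peaks were assigned to 7 (*Fgfr1*, *Spry2*, *Spry4*, *Spred1*, *Dusp6*, *Etv4* and *Etv5*), where 18.6% of genes had at least 1. Genes with peaks of both subunits numbered 5, against 12.7% of all genes. *Fgf5* and *Fgfr2* had neither. The lists hold 10114 SSRP1 and 3855 SUPT16 peaks with median widths of 392 and 280 bp, and 16.2% of the SSRP1 peaks overlap a SUPT16 peak by at least 1 bp.

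The subunits differed in how many of the genes had a peak near a transcription start site (TSS). Within 1000 bp of a RefSeq TSS, an SSRP1 peak was found for *Dusp6* and *Etv4* (26% of all genes) and a SUPT16 peak for *Fgfr1*, *Spry2*, *Spry4*, *Spred1* and *Dusp6* (15.6%). At *Dusp6* both subunits met upstream of the gene: the SSRP1 peak at chr10:99261751-99263024, 1274 bp wide, ended 207 bp before the TSS and contained the SUPT16 peak at chr10:99262311-99262940. A second SUPT16 peak (chr10:99263641-99263990) began 410 bp inside the gene, over coding sequence and an untranslated part of an exon. At *Spred1* a SUPT16 peak of 420 bp (chr2:117120991-117121410) covered the TSS and the untranslated start of the first exon. The SUPT16 peak of *Spry4*, 910 bp wide, also covered the TSS, while its 4 SSRP1 peaks were 13.4 to 29.9 kb from the TSS. The widest of the 4, 4116 bp, overlapped an untranslated exon part at the other end of *Spry4*. The upstream one lay in the gene *Arhgap26*.

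At *Etv4*, SSRP1 peaks lay over a TSS (chr11:101784761-101785152, 392 bp) and 823 bp upstream of one (chr11:101786133-101786720), and 3 more lay 12.4 to 15.4 kb inside or beyond the gene. The 1 SUPT16 peak of *Etv4* overlapped the intronic SSRP1 peak at chr11:101772119-101772412, the segment printed above. *Etv5* had an SSRP1 peak 38.3 kb and a SUPT16 peak 12.3 kb downstream of its nearest TSS, both in introns.

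At *Fgf4*, which is 3.86 kb long, SSRP1 peaks of 1176 and 2058 bp lay on either side of the gene and outside it, at chr7:144857329-144858504, 2.88 kb upstream of the TSS, and at chr7:144865953-144868010, 4.57 kb downstream of it. The nearest SUPT16 peak to either was 1307979 bp away. At *Fgfr1*, SUPT16 peaks of 210 bp lay 652 bp downstream of the TSS, over an exon and intron (chr8:25519411-25519620), and in the untranslated part of an exon near the gene's end (chr8:25574991-25575200). *Spry2* had a SUPT16 peak of 210 bp 910 bp downstream of a TSS, in an untranslated exon part, and SSRP1 peaks 36.8 and 164 kb downstream.

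Set beside the RNA, the 2 genes called higher both had SSRP1 peaks, but so did *Dusp6* and *Spry2*, which passed no threshold. *Fgfr2*, lower by adjusted p alone with the library-size values but not with spike-ins, had no peak of either subunit. Each peak list is 1 call on 2 replicates together, so no replicate spread of the peaks was had, and peaks in KD cells were not analysed here.

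**Figure D5:**
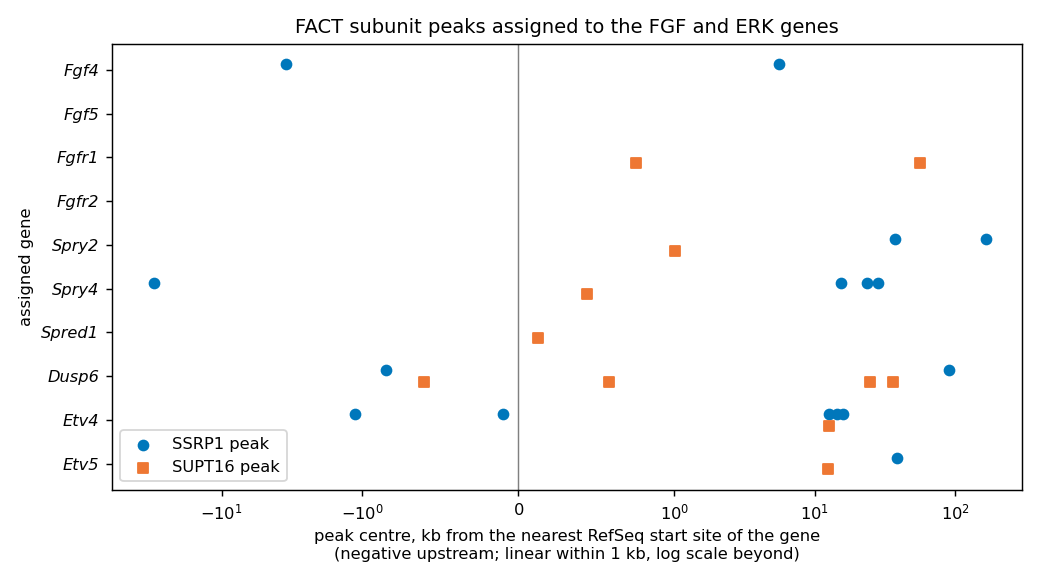
Centres of SSRP1 (blue circles) and SUPT16 (orange squares) peaks assigned to each of the 10 genes, in kb from the gene's nearest RefSeq TSS on an axis that is linear within 1 kb and logarithmic beyond. Most peaks lie more than 1 kb from a TSS, *Dusp6* has peaks of both subunits within it, and *Fgf5* and *Fgfr2* have none.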

How the data were processed

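RNA-seq, chromatin RNA and ChIP-seq of mouse E14 cells were used, and samples were grouped by their labels. Reads were aligned by the authors to mm10 with STAR (2.5.1b or 2.4.1b in the submitters' processing notes), counted with featureCounts, filtered at a CPM of 1 and normalised with TMM in edgeR. The deposited RNA-seq signal per library comes scaled to library size and, separately, to spike-ins. The deposited log2 values used are the authors' mean expression in the table of KD against control and in the table of neural progenitors (3 libraries) against mESCs; they only served to check that 9 of the 10 genes are listed in each. Fold changes, p-values and exon usage in the deposited comparison tables were not used, so neural progenitors were not analysed here. The deposited chromatin RNA values are raw counts per gene. The authors used PePr to call peaks on 2 replicates together after Bowtie2 (2.2.6) alignment and assigned with ChIP-Enrich; the deposited starts were read as counted from 0.

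The library-size values behave as whole reads times 1 step per library (100% of values whole within 0.1), with 4602278 to 19856032 reads per library. The log2(value + 0.5) of all 15384 genes entered limma 3.58.1, with its trend option and Benjamini-Hochberg adjustment over all genes, called at an adjusted p below 0.01 and an absolute log2 fold change above 1. Single genes and within-library ratios were also tested with exact two-sided permutations, which over 4 against 4 libraries cannot go below p = 0.0286. Alternatives were count models on the recovered reads (edgeR 4.0.16, DESeq2 1.42.0), pseudocounts of 0.1 and 2, filters, 6 other scalings or corrections, no trend, a block for replicate number, and leaving out each library. The models were tested on simulated data with few changed genes, evenly up and down, and no shift of the median. The dependence on scaling was not tested by this simulation. TSSs and sequences came from RefSeq on GRCm38 (samtools 1.23.1).

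The study describes the RNA-seq replicates as biological. The 10 genes and the gene lists were chosen with earlier results of these data known, and the lists hold textbook roles. Named genes were the 10 genes, both FACT subunit genes, the pathway genes called (at most 15, by size of change), and for each of the 9 genes its nearest gene by correlation; cell-state markers came from lists of their own, and pathway genes named without a call, such as *Fos*, were chosen after their values were seen. Replicates differed beyond sampling noise (chi-square divided by its degrees of freedom, 1.88 to 6.62), so none was the same library sequenced again. The comparison cannot tell separate library preparations of the same RNA or transfection from biological replicates.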

Additional observations from a re-analysis of the deposited data

How the results depend on the processing

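*Fgf4* kept its direction and call under all 22 alternatives (1.10 to 2.55). *Etv4*, the other gene called, fell short of the fold threshold under quantile normalisation (0.95) and the total of reads (0.85). The scaling to the total of reads was chosen after seeing the data. Past the fold threshold came *Fgfr1* under quantile normalisation (-1.16) and the total of reads (-1.32), *Fgfr2* with a pseudocount of 0.1 (-1.02), TMM (-1.0), the total of reads (-1.42) and edgeR (-1.03), *Etv5* with spike-ins (1.96) and the exon length correction (1.28), and with spike-ins also *Spry2* (1.10), *Spry4* (1.55) and *Dusp6* (1.02). Signs turned with spike-ins for *Fgfr1* (0.13), *Fgfr2* (0.00052) and *Spred1* (0.94), with the exon length correction for *Spred1* (0.18), with the total of reads for *Spry2* (-0.33) and *Dusp6* (-0.42), and with quantiles for *Dusp6* (-0.24). The cause was not tested, beyond the shift of the median of all genes.

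With each library left out in turn, *Fgf4* was 1.49 to 1.58, *Etv4* 1.22 to 1.35, *Etv5* 0.92 to 0.97, *Spry4* 0.47 to 0.63, *Spry2* 0.05 to 0.15, *Dusp6* -0.01 to 0.03 (without control replicate 2 -0.0029, without control replicate 4 -0.01, without KD replicate 4 -0.0071), *Spred1* -0.11 to -0.04, *Fgfr1* -0.93 to -0.84 and *Fgfr2* -1.05 to -0.93. The ratio differences were -0.16 to -0.03 (*Fgfr2* to *Fgfr1*), 0.37 to 0.58 (*Spry4* to *Spry2*) and -0.42 to -0.27 (*Etv5* to *Etv4*).

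Called of the 9 genes were 2 higher and 0 lower; edgeR, TMM and a pseudocount of 0.1 gave 1 lower, quantiles 1 higher and 1 lower, the total of reads 1 higher and 2 lower, spike-ins 6 higher, adjusted p alone 4 higher and 2 lower, and libraries left out 2 higher and 0 to 1 lower. Of 52 other pathway genes, 5 higher and 10 lower became 1 and 16 with the total of reads, 23 and 1 with spike-ins, 16 and 20 by adjusted p alone; 3 lower with quantiles and 4 with the exon length correction; and 5 to 6 higher and 10 to 10 lower with libraries left out. Over all genes, 4405 calls (1242 higher, 3163 lower) became 8476 (7394 and 1082) with spike-ins and 11192 (5447 and 5745) by adjusted p alone; 343 were higher with the total of reads, and 2024 lower at a mean value of at least 5 and 1656 lower with quantiles. Higher calls were 28.2% of all calls, 47.8% with quantiles, 87.2% with spike-ins, 6.81% with the total of reads and 38.7% with the exon length correction. Without 1 library, 4254 to 4635 genes were called, 1210 to 1316 higher and 3044 to 3331 lower.

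Replicate numbers did not pair the libraries: deviations of same-numbered libraries correlated at -0.057 to 0.0175. A fit with the replicate block gave 4405 calls and changed no call among the 9 genes (*Fgf4* 1.53).

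SSRP1 peaks that overlap a SUPT16 peak were assigned to 2 of the genes in place of 6, and 1 in place of 2 lay within 1000 bp of a TSS. With SUPT16 peaks of at least 500 bp, 2 genes in place of 7 were assigned and 2 in place of 5 lay within 1000 bp; within 500 bp there were 3. Ranks in chromatin RNA without the length were 16387 for *Fgf5*, 12445 for *Fgfr2*, 3005 for *Fgfr1*, 2959 for *Spry2* and 2200 for *Etv5*. Over the libraries taken singly they were 331 to 614 for *Fgf4*, 604 to 1114 for *Spred1*, 2050 to 2094 for *Spry2*, 1366 to 4641 for *Etv4*, 1562 to 4785 for *Spry4*, 2891 to 3108 for *Dusp6*, 2943 to 3256 for *Etv5*, 5162 to 5449 for *Fgfr1*, 12709 to 15066 for *Fgfr2* and 15055 to 15066 for *Fgf5*. In the first library 15065 genes had counts, and 15066 is the rank shared by all genes at 0, *Fgfr2* and *Fgf5* among them. The single-library ranks of these 2 genes are therefore not comparable with those over both libraries. Control libraries hold fewer reads than KD libraries (163 to 174 reads of *Spry4* against 318 to 743), which limits the precision of the lowest genes.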
